A study of Homo sapiens with 16 samples.

Results

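The BCL2 family of apoptosis regulators was followed in 2 human acute myeloid leukaemia cell lines through 10 of its genes, taken by gene symbol from the 60603 genes of the deposited count table. All 10 symbols were present, and all 10 genes passed the filter on low counts in each line. The genes are the antiapoptotic BCL2, BCL2L1, MCL1 and BCL2A1, the BH3-only genes BCL2L11, BBC3, PMAIP1 and BID, and the effectors BAX and BAK1. SKNO-1 is a myeloid line known for its RUNX1-RUNX1T1 fusion gene. U-937 has features of monocytes. Each was kept for 24 h with DMSO, the solvent control, with ATRA (all-trans retinoic acid, an agonist of retinoic acid receptors), with Corin (a dual inhibitor of the demethylase LSD1 and the histone deacetylases HDAC1 and HDAC2 in the CoREST complex), or with both agents. Each agent was used at 0.1 µM, and total RNA was sequenced from 2 libraries in each of 8 groups, 16 in all. SKNO-1 alone was grown with GM-CSF, a myeloid cytokine, at 10 ng/mL in all 4 of its groups, so a difference between lines cannot be told apart from a difference in medium. The study's title names the interplay of CoREST, p300 and retinoic acid signalling.

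Proteins of the BCL2 family decide whether the outer membrane of mitochondria is opened during intrinsic apoptosis. BAX and BAK1 form the pore, the antiapoptotic proteins bind and restrain them, and BH3-only proteins act by occupying the antiapoptotic proteins or by engaging the effectors directly. Myeloid leukaemia cells are known to lean on BCL2 or MCL1, and BCL2 is the target of the drug venetoclax. Only RNA was measured here, and MCL1 and PMAIP1 proteins are known for their short half-lives.

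Library totals ran from 28.4 to 37.8 M estimated counts. The labels did not say that libraries of a group came from separate cultures, so p-values measure only the spread between these samples. RUNX1T1 had between 3181 and 5162 counts in each SKNO-1 library and at most 1 in each U-937 library. The myeloid gene CD33 was at 87.6 to 125 CPM (counts scaled to TMM-adjusted library totals) in SKNO-1 and 68.4 to 114 in U-937. It was 1 of 7 myeloid markers listed, with SPI1, CEBPA, MPO, ITGAM, CD14 and CSF1R. All 7 passed the filter on low counts in SKNO-1, and 5 of the 7 did in U-937. With DMSO, 4 of the 7 were higher and 3 lower in U-937 than in SKNO-1 (edgeR, adjusted p under 0.05, as for 64.8% of all genes tested). RARB, a direct target of ATRA, had 0 counts in each DMSO library, 18 and 24 counts in SKNO-1 with ATRA, and 766 and 677 in U-937 with ATRA. Of 12 markers of other cell types, CD3, MS4A1 and HBB genes among them, those other than PECAM1 summed to at most 0.316 CPM in SKNO-1 and 3.49 CPM in U-937. PECAM1, known in myeloid cells as well as endothelium, was at 56.2 and 61.5 CPM with DMSO and 254 and 293 with both agents in U-937, and at 7.23 and 8.77 and at 23.2 and 21.5 CPM in SKNO-1. HBB and MS4A1 had 0 counts in all 16 libraries, and the part of such cells in the results was not tested. The 2 SKNO-1 DMSO libraries stood apart from each other. Their log2 differences had an SD of 0.35 over genes and a correlation of -0.79 with the GC content of the gene, against SDs of 0.11 to 0.20 in the other 7 groups. Correlations with GC in those 7 ran from -0.57 (U-937 DMSO) to 0.43 (SKNO-1 ATRA). Values of SKNO-1 against DMSO are given without each DMSO library where a call or its size depends on it.

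In cells treated with DMSO, MCL1 was the most abundant transcript of the family per length in both lines. It was at 50.6 and 75.2 TPM (a level scaled by transcript length within each library) in SKNO-1 and at 58.5 and 72.1 TPM in U-937. BCL2A1, an antiapoptotic gene known as a target of NF-kappaB in blood cells, came next in U-937, at 50.2 and 59.7 TPM, below MCL1 in each library. In SKNO-1 it was at 7.01 and 9.27 TPM, among the lower genes of the family. BAX stood at 26.2 TPM in both SKNO-1 libraries and at 27.5 and 23.9 TPM in U-937. BID, the BH3-only gene that links death receptors to mitochondria, was at 25.6 and 30.0 TPM in SKNO-1, below BAX in 1 library and above it in the other, and at 19.9 and 19.4 TPM in U-937. BCL2L1, which encodes BCL-XL, was at 19.1 and 21.2 TPM in SKNO-1 and 16.5 and 14.0 TPM in U-937. BCL2 was at 11.3 and 21.5 TPM in SKNO-1 and at 15.4 and 18.1 TPM in U-937, and in each line it was below BCL2L1 in 1 library and above it in the other. BCL2L11 (BIM), BAK1 and PMAIP1 (NOXA) lay between 6.64 and 16.7 TPM in all 4 DMSO libraries, and their order differed between the 2 SKNO-1 libraries. BBC3 (PUMA) was lowest, at 0.43 and 0.19 TPM in SKNO-1 and 1.52 and 1.35 TPM in U-937.

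The lines differed in 6 of these 10 genes before any agent was added, 3 higher and 3 lower in U-937, where 64.8% of all 19872 genes tested were called, 31.7% higher and 33.1% lower. Here and below a gene is called changed at an adjusted p under 0.05 in the quasi-likelihood test of edgeR, adjusted by Benjamini-Hochberg over all genes tested. BCL2A1 was 5.33-fold higher in U-937 than in SKNO-1 (log2 difference 2.41, SE 0.12, adjusted p = 1.11e-12). BBC3 (1.44, SE 0.37, adjusted p = 0.00206) and BCL2L11 (0.48, SE 0.12, adjusted p = 0.00164) were higher in U-937 too. BCL2L1 was lower in U-937 by a log2 difference of -0.91 (SE 0.11, adjusted p = 8.16e-07) and BID by -0.87 (SE 0.10, adjusted p = 2.60e-07). BAX was lower by -0.43 (adjusted p = 0.0149), but without SKNO-1 DMSO replicate 1 the value was -0.07. The BAX call was lost in 5 of 23 alternative fits, among them those with scaling by library totals only and with effective gene length as an offset. BCL2, MCL1, PMAIP1 and BAK1 were not called different between the lines. Without SKNO-1 DMSO replicate 1, BCL2 (-0.29), PMAIP1 (-0.30) and BAK1 (0.70) were called.

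**Figure D1:**
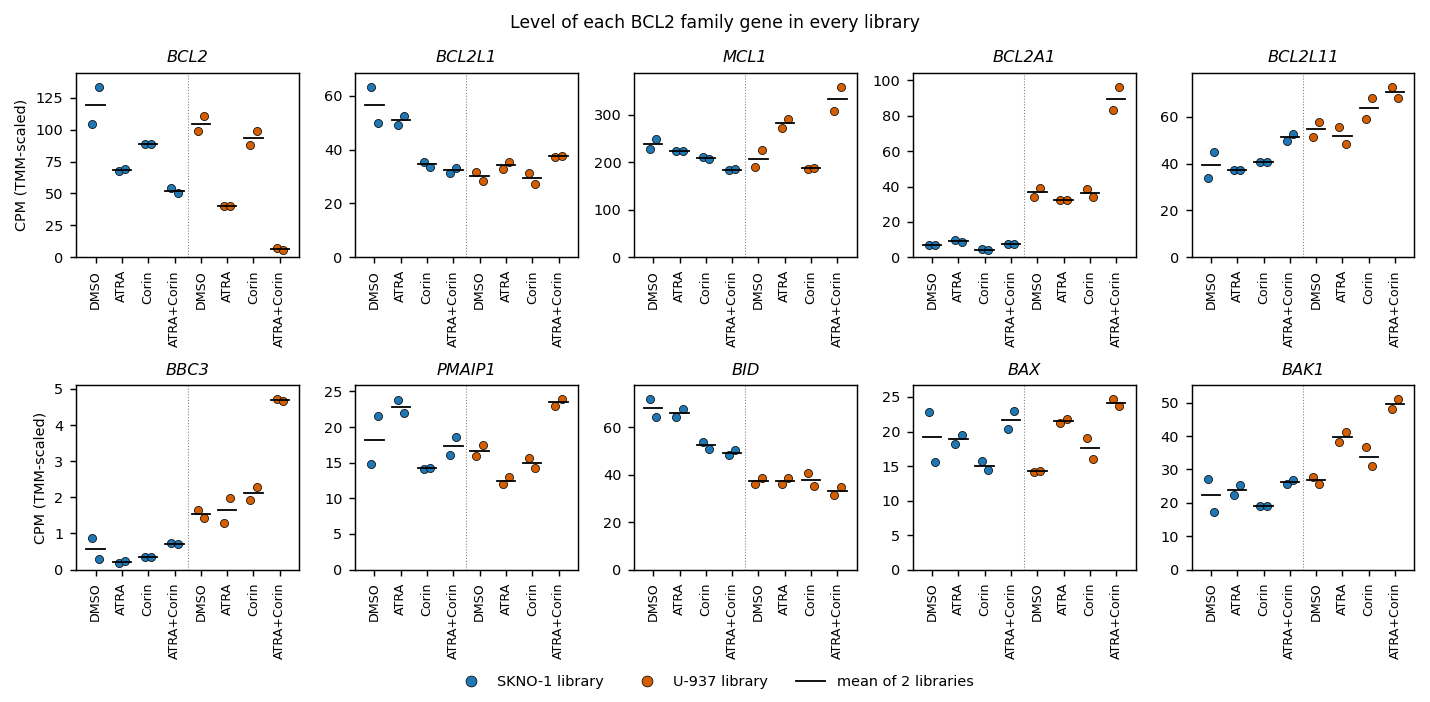
Level of each of the 10 genes in every library, in CPM on TMM-scaled totals, by treatment in SKNO-1 (blue) and U-937 (orange); points are libraries and bars the mean of 2. BCL2 falls to 7.13 and 6.08 CPM in U-937 with both agents, where BCL2A1 reaches 82.9 and 96.3 CPM.

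With both agents, 9 of the 10 genes changed in U-937, 8 higher and 1 lower, where 65.3% of 17717 genes tested were called, 33.1% higher and 32.2% lower. BCL2 was the one that fell. The median log2 change of the 10 genes was 0.59, beside 0.03 over all genes tested. In SKNO-1, 5 of the 10 changed with both agents, 1 higher and 4 lower, where 46.7% of 17479 genes were called, 24.7% higher and 22% lower. The median of the 10 was 0.09 there and that of all genes 0.05. ATRA alone changed 5 of the 10 in U-937, 3 higher and 2 lower (41.8% of genes called, 21.7% higher and 20.1% lower), and 1 in SKNO-1, which was lower (6.76% of genes called, 2.96% higher and 3.79% lower). Corin alone changed 1 in U-937, which was higher (12.9% of genes called, 8.55% higher and 4.4% lower), and 5 in SKNO-1, all lower (37.9% of genes called, 20.5% higher and 17.3% lower). The 3 treatments of a line were compared with the same DMSO libraries. In bulk RNA, fewer cells expressing a gene and less RNA per cell cannot be told apart.

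**Figure D2:**
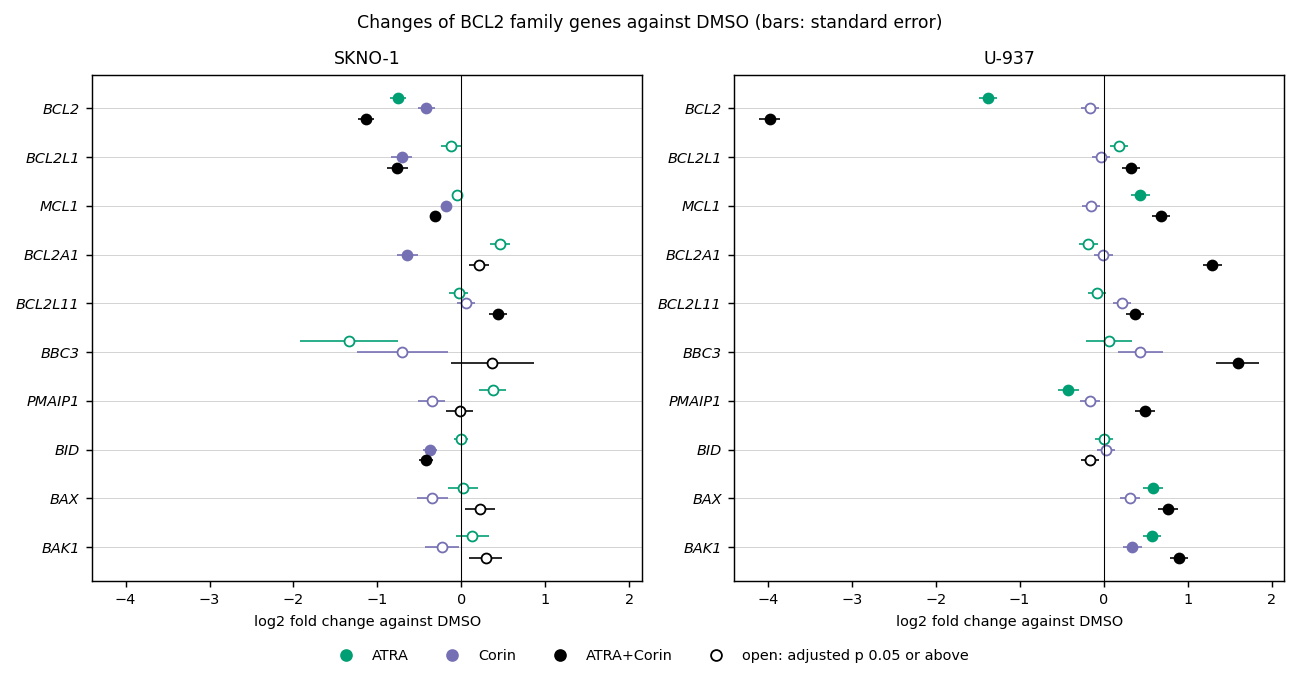
Log2 fold change of the 10 genes against DMSO under ATRA (green), Corin (purple) and both agents (black), by line; bars are standard errors, and filled points have an adjusted p under 0.05. BCL2 lies at -3.98 in U-937 and -1.14 in SKNO-1 with both agents.

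BCL2 fell in U-937 with ATRA and fell further when Corin was present. Its level was 98.7 and 111 CPM with DMSO, 87.7 and 98.9 with Corin, 40.5 and 40.1 with ATRA, and 7.13 and 6.08 with both agents. The ATRA libraries and the combination libraries were each below all DMSO and Corin libraries, whereas Corin and DMSO overlapped. The fall with both agents was 15.7-fold (log2 -3.98, SE 0.12, adjusted p = 3.60e-18). With ATRA alone it was 2.60-fold (log2 -1.38, SE 0.11, adjusted p = 2.35e-10), and with Corin alone the log2 change was -0.16 (SE 0.10, adjusted p = 0.341). Against ATRA alone, the addition of Corin lowered BCL2 by 6.05-fold (adjusted p = 2.26e-14). The authors' deposited table gave -4.00 for both agents (adjusted p = 2.27e-157).

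In SKNO-1 BCL2 fell under each treatment. The levels were 104 and 133 CPM with DMSO, 67.6 and 69.3 with ATRA, 88.5 and 88.6 with Corin, and 54.0 and 50.3 with both. No treated library overlapped DMSO, and the combination was lowest. Log2 changes were -0.76 with ATRA (SE 0.10, adjusted p = 0.00295), -0.42 with Corin (SE 0.10, adjusted p = 0.0122) and -1.14 with both (SE 0.10, adjusted p = 9.04e-05). Leaving out DMSO replicate 1 gave -1.30 for both agents, and leaving out DMSO replicate 2 gave -0.98. For Corin these were -0.59 and -0.27, and for ATRA -0.95 and -0.63, all called. With only the 4 libraries of each comparison fitted, the ATRA (adjusted p = 0.0744) and Corin (adjusted p = 0.0643) calls were lost. The Corin call was also lost without Corin replicate 1 (adjusted p = 0.0749) or Corin replicate 2 (adjusted p = 0.0773). BCL2 lies on the minus strand of chromosome 18 from 63123346 to 63320128 (ENSG00000171791.13; positions are those of GENCODE 44 on GRCh38).

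BCL2A1, on the minus strand of chromosome 15 from 79960892 to 79971196, rose in U-937 with both agents and was called with neither agent alone. On library totals it was called lower with ATRA alone (adjusted p = 0.0387). It was at 34.1 and 39.2 CPM with DMSO, 32.6 and 32.2 with ATRA, 38.8 and 34.1 with Corin, and 82.9 and 96.3 with both agents. The combination libraries were above the other 6, which lay between 32.2 and 39.2 CPM. The rise was 2.46-fold (log2 1.30, SE 0.11, adjusted p = 3.08e-10). In SKNO-1 it was at 7.05 and 6.71 CPM with DMSO, 9.57 and 8.85 with ATRA, 4.46 and 4.33 with Corin, and 7.68 and 7.66 with both. It fell with Corin by 1.56-fold (log2 -0.64, SE 0.13, adjusted p = 0.00524), a call that the authors' deposited table did not make (adjusted p = 0.0654). The call was also lost with only the 4 libraries of that comparison fitted. Without DMSO replicate 1 that fall was -0.61, and ATRA raised the gene (0.47, adjusted p = 0.0193). Without DMSO replicate 2 they were -0.72 and 0.36 (adjusted p = 0.0858). Against Corin alone, both agents raised it by 1.80-fold (log2 0.85, SE 0.13, adjusted p = 0.00549). That call was lost without 1 of the combination or Corin libraries, with adjusted p between 0.0641 and 0.0697. Its counts were not whole in 6 of 16 libraries, which RSEM gives where reads are divided between genes.

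MCL1, whose protein holds BAK1 and BIM in check, moved in opposite directions in the lines with both agents. In U-937 it was at 189 and 226 CPM with DMSO, 185 and 189 with Corin, 273 and 291 with ATRA, and 307 and 359 with both. All 4 libraries with ATRA lay above the 4 without it. It rose with ATRA by 1.36-fold (log2 0.44, SE 0.11, adjusted p = 0.00215), a call lost without DMSO replicate 1 (0.31, adjusted p = 0.0798), and with both agents by 1.61-fold (log2 0.69, SE 0.11, adjusted p = 6.88e-06). In SKNO-1 it was at 228 and 248 CPM with DMSO, 223 and 224 with ATRA, 211 and 207 with Corin, and 183 and 186 with both. The combination was lowest, and its fall was 1.24-fold (log2 -0.31, SE 0.05, adjusted p = 0.00201), and stayed called at -0.37 and -0.28 with DMSO replicate 1 or 2 left out. With ATRA it was called (-0.14, adjusted p = 0.0134) only when DMSO replicate 1 was left out. The fall with Corin alone (log2 -0.18, adjusted p = 0.0277) was not called in the authors' deposited table (adjusted p = 0.276), with DESeq2 (adjusted p = 0.0552) or on library totals (adjusted p = 0.199). It was also lost without either Corin library or either combination library, with adjusted p from 0.0649 to 0.147. MCL1 lies on the minus strand of chromosome 1 from 150560895 to 150579738, where 43 bases are shared with ADAMTSL4 on the opposite strand.

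BCL2L1 fell with Corin in SKNO-1. It was at 63.2 and 49.9 CPM with DMSO and 49.2 and 52.4 with ATRA, which overlapped, and at 35.3 and 33.7 with Corin and 31.2 and 33.2 with both, below all of those. The fall was 1.64-fold with Corin (log2 -0.71, SE 0.12, adjusted p = 0.00290) and 1.70-fold with both agents (log2 -0.76, SE 0.12, adjusted p = 0.00157). The latter stayed called at -0.57 with DMSO replicate 1 left out and at -0.95 with DMSO replicate 2 left out. The Corin fall was -0.53 and -0.91 in the same fits, and with replicate 2 left out ATRA lowered BCL2L1 too (-0.34, adjusted p = 0.000600). In U-937 its levels were 31.5 and 28.5 CPM with DMSO, 33.0 and 35.5 with ATRA, 31.4 and 27.2 with Corin, and 37.3 and 37.7 with both. The rise with both agents was 1.25-fold (log2 0.33, SE 0.11, adjusted p = 0.0109). That call was lost in the authors' deposited table (adjusted p = 0.0686), on library totals (adjusted p = 0.0750), without DMSO replicate 2 (adjusted p = 0.129), and when each library's effective gene length entered as an offset (adjusted p = 0.112). BCL2L1 lies on the minus strand of chromosome 20 from 31664452 to 31723989.

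The make-up of the antiapoptotic transcripts differed between treatments. In U-937 with DMSO, BCL2 was 10.997% ± 0.083 (SD, n = 2) of the summed TPM of the 4 genes, BCL2L1 10.1% ± 2.24, MCL1 42.8% ± 1.66 and BCL2A1 36.1% ± 0.503. With both agents BCL2 was 0.43% ± 0.097, BCL2L1 6.98% ± 0.874, MCL1 41.1% ± 0.669 and BCL2A1 51.5% ± 0.302. With ATRA alone MCL1 held 55.1% ± 0.977 and BCL2 4.05% ± 0.156, while with Corin alone BCL2 held 10.6% ± 1.37. In SKNO-1 MCL1 held 58.3% ± 1.18 with DMSO and 63.5% ± 0.201 with both agents, and BCL2 14.9% ± 2.83 and 9.07% ± 0.648. BCL2A1 stayed at or below 12.01% as a group mean in SKNO-1. These shares are ratios within a library and were not tested. TPM was not compared between libraries, because 4 short RNAs (RN7SL1, RN7SL2, RN7SK and SNORD3A) took 35.3% to 51.8% of it.

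**Figure D3:**
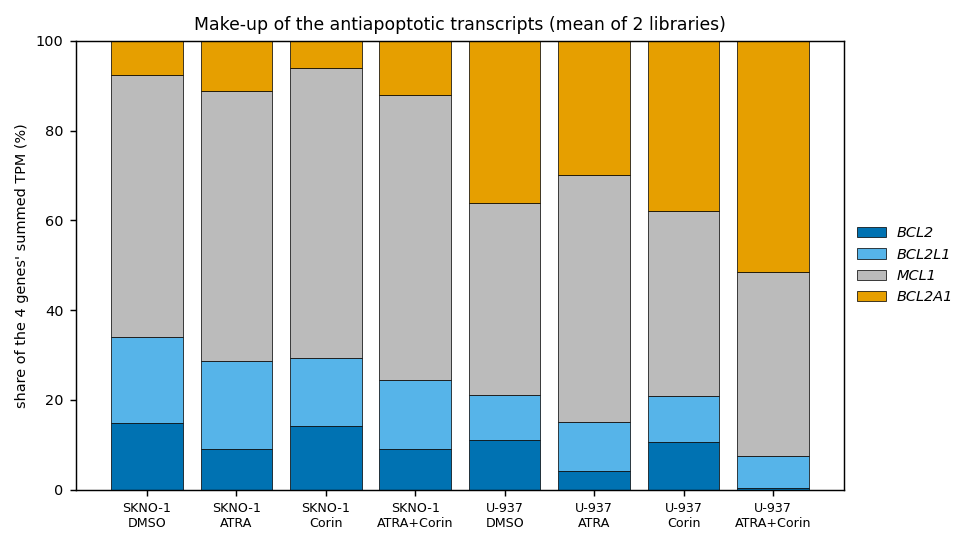
Share of BCL2, BCL2L1, MCL1 and BCL2A1 in the summed TPM of these 4 genes, mean of 2 libraries, by line and treatment. In U-937 with both agents BCL2 holds 0.43% and BCL2A1 51.5%.

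Among the BH3-only genes, BBC3, PMAIP1 and BCL2L11 rose in U-937 with both agents, and BID was not called. BBC3, a target of p53 and of other stress factors, was at 1.66 and 1.44 CPM with DMSO, 1.28 and 1.99 with ATRA, 1.92 and 2.29 with Corin, and 4.72 and 4.66 with both. The combination stood above the other 6 libraries, and the rise was 3.03-fold (log2 1.60, SE 0.26, adjusted p = 8.60e-06). In SKNO-1 BBC3 had between 6 and 29 counts per library, and its 2 DMSO libraries were at 0.87 and 0.28 CPM. Those spanned Corin (0.36 and 0.34) and both agents (0.73 and 0.70), and ATRA (0.18 and 0.25) lay below them. No treatment was called against DMSO there. Without DMSO replicate 1 the change with both agents was 1.39 (adjusted p = 0.0419), and without DMSO replicate 2 those with ATRA (-2.00, adjusted p = 0.00683) and Corin (-1.34, adjusted p = 0.0264) were called. Both agents against ATRA gave a log2 difference of 1.71 (SE 0.57, adjusted p = 0.0392), which was not called with DESeq2 (adjusted p = 0.0766) or without any 1 of the SKNO-1 ATRA, Corin or combination libraries.

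PMAIP1, whose protein binds MCL1, fell in U-937 with ATRA and rose with both agents. It was at 15.96 and 17.5 CPM with DMSO, 12.1 and 12.9 with ATRA, 15.6 and 14.2 with Corin, and 23.0 and 23.9 with both. The ATRA libraries were the lowest and the combination libraries the highest, without overlap. The fall with ATRA was 1.34-fold (log2 -0.42, SE 0.12, adjusted p = 0.00754) and the rise with both was 1.41-fold (log2 0.50, SE 0.12, adjusted p = 0.000841). The ATRA call was lost without ATRA replicate 1 (adjusted p = 0.0940) or DMSO replicate 2 (adjusted p = 0.0790). In SKNO-1 PMAIP1 was at 14.9 and 21.5 CPM with DMSO, 23.8 and 21.998 with ATRA, 14.1 and 14.3 with Corin, and 16.03 and 18.6 with both, and no treatment was called against DMSO. Without DMSO replicate 1 it was called lower with Corin (-0.60) and with both agents (-0.26), and without DMSO replicate 2 it was called higher with ATRA (0.60). It lies on the plus strand of chromosome 18 from 59899996 to 59904305.

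BCL2L11 was at 51.4 and 57.8 CPM with DMSO in U-937, 55.5 and 48.5 with ATRA, 59.1 and 68.1 with Corin, and 72.7 and 68.1 with both. The combination lay above DMSO and ATRA, and its lower library met the higher Corin library at 68.1 CPM. The rise against DMSO was 1.30-fold (log2 0.37, SE 0.11, adjusted p = 0.00392). It was lost without DMSO replicate 1 (adjusted p = 0.0784), on library totals (adjusted p = 0.0902) and with the gene length offset (adjusted p = 0.0651). In SKNO-1 it was at 33.8 and 44.7 CPM with DMSO, 37.4 and 37.2 with ATRA, 40.5 and 40.8 with Corin, and 49.8 and 52.6 with both. The rise with both agents was 1.35-fold (log2 0.44, SE 0.11, adjusted p = 0.0137), 0.25 with DMSO replicate 1 left out and 0.62 with DMSO replicate 2 left out. ATRA alone gave -0.25 (adjusted p = 0.00666) in the first of these fits, and Corin alone 0.23 (adjusted p = 0.00902) in the second. The rise with both agents was not called without combination replicate 1 or 2, or in the authors' deposited table (adjusted p = 0.160). It was also lost with only the 4 libraries of that comparison fitted. BCL2L11 lies on the plus strand of chromosome 2 from 111119378 to 111168444. The antisense long noncoding RNA MIR4435-2HG covers all 49067 of those bases and held 21340 counts over the 16 libraries, beside 27525 for BCL2L11. This overlap is of gene spans, and overlap of exons was not examined. How strand was used in counting was not stated, so reads of the 2 genes may not be told apart and the values of BCL2L11 are uncertain. The counts of BCL2L11 were whole in all 16 libraries, whereas RSEM gives counts that are not whole where reads are divided between genes. MIR4435-2HG itself was at 69.2 and 72.1 CPM with DMSO and 38.6 and 43.6 with both agents in U-937, and at 22.4 and 23.1 and at 21.4 and 18.7 CPM in SKNO-1.

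BID fell with Corin in SKNO-1 and was not called in U-937. In SKNO-1 it was at 71.8 and 64.5 CPM with DMSO, 64.1 and 67.9 with ATRA, 53.8 and 50.9 with Corin, and 48.2 and 50.3 with both. The 4 libraries with Corin lay below the 4 without it. Log2 changes were -0.38 with Corin (SE 0.08, adjusted p = 0.00901) and -0.42 with both agents (SE 0.08, adjusted p = 0.00432). The Corin call was lost without Corin replicate 2, and with only the 4 libraries of that comparison fitted. With DMSO replicate 1 or 2 left out, Corin gave -0.30 and -0.49 and both agents -0.33 and -0.53, all called. In U-937 it was at 36.0 and 38.4 CPM with DMSO and 31.6 and 34.6 with both, a log2 change of -0.16 (SE 0.11, adjusted p = 0.189). On library totals that change was -0.29 (adjusted p = 0.00947), and with the GC trend removed -0.25 (adjusted p = 0.0313).

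Both effectors rose in U-937 with ATRA and with both agents. BAK1 was at 27.7 and 25.8 CPM with DMSO, 38.3 and 41.3 with ATRA, 36.6 and 31.0 with Corin, and 48.0 and 51.1 with both. All treated libraries exceeded DMSO, and the combination was highest. Log2 changes were 0.57 with ATRA (SE 0.11, adjusted p = 0.000155) and 0.90 with both agents (SE 0.11, adjusted p = 1.27e-07). The change with Corin, 0.34 (SE 0.11, adjusted p = 0.0387), was the single Corin call in U-937. It was not kept in the authors' deposited table (adjusted p = 0.114), with DESeq2 (adjusted p = 0.0646), with the GC trend removed (adjusted p = 0.170) or without any 1 of the DMSO or ATRA libraries or Corin replicate 1. BAK1 counts were not whole in any library, which RSEM gives where reads are divided between genes. The pseudogene BAK1P1 held 95.4 counts over the 16 libraries.

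BAX was at 14.1 and 14.3 CPM with DMSO in U-937, 21.2 and 21.8 with ATRA, 19.1 and 16.1 with Corin, and 24.7 and 23.7 with both. Each treatment lay above DMSO without overlap. Log2 changes were 0.59 with ATRA (SE 0.12, adjusted p = 0.000286) and 0.77 with both agents (SE 0.12, adjusted p = 4.72e-06), and 0.31 with Corin, which was not called (SE 0.12, adjusted p = 0.0950). The effective length that RSEM gave BAX, a mean over its transcript forms, differed between libraries. It was 515 and 620 bases with DMSO and 734 and 642 with both agents. With this length as an offset, the change with both agents was 0.47 (adjusted p = 0.00792), and that with both agents against Corin fell from 0.46 (adjusted p = 0.00155) to 0.16 (adjusted p = 0.361). The effective length of BAK1 stayed between 2070 and 2074 bases in all 16 libraries. In SKNO-1 neither effector was called under any treatment. There BAX was at 22.8 and 15.6 CPM and BAK1 at 27.2 and 17.3 CPM with DMSO, and both genes have a GC content (60.5% and 58.7%) among the highest of the 10. Without DMSO replicate 1 the change of BAK1 with both agents was 0.67 (adjusted p = 4.19e-06), and without DMSO replicate 2 it was -0.03 (adjusted p = 0.776). For BAX the same values were 0.54 (adjusted p = 0.000170) and -0.05 (adjusted p = 0.671). Without DMSO replicate 2, Corin lowered BAX (-0.63, adjusted p = 2.08e-05) and BAK1 (-0.56, adjusted p = 2.60e-05), and without DMSO replicate 1 ATRA raised BAX (0.30, adjusted p = 0.0392) and BAK1 (0.48, adjusted p = 0.000645). BAX with Corin was also called without the low-count filter (adjusted p = 0.0417) and with the GC trend removed (adjusted p = 0.0113). BAX lies on the plus strand of chromosome 19 from 48954815 to 48961798, and BAK1 on the minus strand of chromosome 6 from 33572547 to 33580293.

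Whether the agents acted on each gene beyond the sum of their single log2 effects was tested as a contrast of all 4 groups of a line. In U-937 4 of the 10 genes departed from that sum, 3 above and 1 below, where 23.4% of genes were called, 8.09% above and 15.3% below. BCL2 fell by more than the sum, with a difference of -2.43 (SE 0.16, adjusted p = 5.29e-11). BCL2A1 (1.48, SE 0.16, adjusted p = 1.08e-07), PMAIP1 (1.075, SE 0.17, adjusted p = 3.95e-05) and BBC3 (1.09, SE 0.37, adjusted p = 0.0340) rose by more. The BBC3 call was lost with DESeq2 (adjusted p = 0.0732), with the length offset (adjusted p = 0.101), on library totals (adjusted p = 0.0649), and without any 1 of combination replicate 1, ATRA replicate 1, Corin replicate 1 or either DMSO replicate. BAX (-0.13, SE 0.17) and BAK1 (-0.02, SE 0.15) were not called different from the sum. In SKNO-1 edgeR called 0 of the 10, where 0.463% of genes were called, 0.315% above and 0.149% below. There 2 of them had an unadjusted p under 0.05, BBC3 (2.41, adjusted p = 0.261) and BCL2L11 (0.42, adjusted p = 0.314). DESeq2 called 0 of the 9 genes to which it gave an adjusted p, and BBC3 was not among those 9. BCL2 in SKNO-1 differed from the sum by 0.04 (SE 0.14, adjusted p = 0.916). The SKNO-1 result rests on its DMSO libraries. Without DMSO replicate 1, 2 of the 10 were called, BCL2 (0.24, adjusted p = 0.0469) and BCL2L11 (0.64), and calls over all genes went from 81 of 17479 to 1156 of 18304. Without DMSO replicate 2, 5 were called, BCL2L1 (0.30), BCL2L11 (0.27), BBC3 (3.08), BAX (0.87) and BAK1 (0.75), with 5648 of 18284 genes called.

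**Figure D4:**
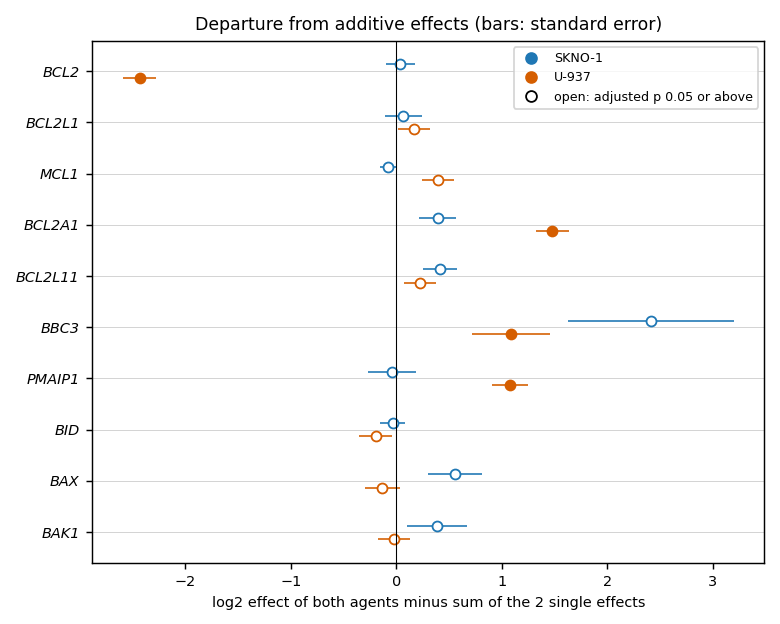
Departure from additivity, as the log2 effect of the combination less the effects of ATRA and of Corin, for each of the 10 genes, in SKNO-1 (blue) and U-937 (orange); bars are standard errors, and filled points have an adjusted p under 0.05. In U-937 BCL2 lies at -2.43 and BCL2A1 at 1.48.

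Adding Corin to ATRA changed 6 of the 10 genes in U-937, 5 higher and 1 lower (47.4% of genes called, 22.5% higher and 24.8% lower), and 6 in SKNO-1, 2 higher and 4 lower (44.8% of genes called, 23% higher and 21.8% lower). The 5 in U-937 were BCL2A1 (1.48, SE 0.11), BBC3 (1.53, SE 0.25), PMAIP1 (0.92, SE 0.12), BCL2L11 (0.45, SE 0.11) and BAK1 (0.32, SE 0.11), and the lower one was BCL2. In SKNO-1 BCL2L11 and BBC3 rose, and BCL2 (-0.38, SE 0.10), BCL2L1 (-0.65, SE 0.12), MCL1 (-0.26, SE 0.05) and BID (-0.41, SE 0.08) fell. Leaving out 1 SKNO-1 library at a time, between 1 and 9 of the 10 were called there, and between 4962 and 10907 of all genes. The 1 was without ATRA replicate 2, where 5078 genes were called, and the 9 without either DMSO library. Adding ATRA to Corin changed 8 of the 10 in U-937, 7 higher and 1 lower (60.5% of genes called, 29.9% higher and 30.6% lower), with BCL2L11 and BID not called. In SKNO-1 it changed 2, BCL2A1 higher and BCL2 lower (10.4% of genes called, 4.82% higher and 5.6% lower), and the count ran from 0 to 7 when 1 library was left out, with 397 to 7126 of all genes called.

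Because BCL2A1 and PMAIP1 both departed upward from additivity in U-937, the sequences just before their annotated starts are shown. The BBC3 window overlaps an annotated exon and is not printed. RefSeq windows on GRCh38.p14 were found for 9 of the 10 genes, all but MCL1, and the 250 bases before the start were searched on both strands for 8 motifs. The BCL2A1 window is chr15:79971197-79971446 on the minus strand and the PMAIP1 window is chr18:59899746-59899995 on the plus strand, and neither overlaps an annotated exon. Both are written 5′ to 3′ on the gene's strand, with motif matches in capitals.
BCL2A1: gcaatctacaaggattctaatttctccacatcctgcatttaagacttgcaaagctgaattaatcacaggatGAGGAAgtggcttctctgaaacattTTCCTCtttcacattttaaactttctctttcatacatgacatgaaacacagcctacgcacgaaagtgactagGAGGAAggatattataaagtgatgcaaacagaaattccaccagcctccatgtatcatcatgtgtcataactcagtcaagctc
PMAIP1: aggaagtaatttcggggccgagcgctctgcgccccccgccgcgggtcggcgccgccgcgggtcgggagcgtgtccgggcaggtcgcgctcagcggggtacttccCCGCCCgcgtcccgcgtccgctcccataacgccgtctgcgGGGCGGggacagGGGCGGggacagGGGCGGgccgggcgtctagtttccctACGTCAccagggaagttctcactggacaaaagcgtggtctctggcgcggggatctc
The capitals in the BCL2A1 window mark 3 matches to GAGGAA, the core bound by the myeloid factor PU.1, or to its reverse complement. At least 1 such match was in 23.6% of all 35116 promoter windows. The capitals in the PMAIP1 window mark 4 matches to the GC box GGGCGG (in 42.6% of windows) and 1 to the cAMP-response half-site TGACGT (7.10%). No matches overlapped in either window. The windows have a GC content of 38.8% and 72.8%. The other motifs were the retinoid receptor half-site AGGTCA (12.1% of windows), the RUNX site TGTGGT (10.98%), the NF-kappaB site (1.73%), TTGCNNAA for C/EBP (9.05%) and the E-box CACGTG (6.34%). All 250 bases of the BCL2 window lie within an annotated exon, and it held none of the 8 motifs. AGGTCA was in none of the 9 windows, of which only 3 overlap no annotated exon. The BAX window held CACGTG 4 times and the BBC3 window once. A match describes letters only, and no binding was measured.

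The responses differed between the lines for 5 of the 10 genes under ATRA (2 higher and 3 lower in U-937; 19.4% of genes called, 10.6% higher and 8.81% lower), for 3 under Corin (all higher; 12.8% called, 5.28% higher and 7.49% lower) and for 7 under both agents (6 higher and 1 lower; 40.6% called, 17.9% higher and 22.7% lower), by an interaction test over all 16 libraries. With both agents BCL2 fell by 2.79 more on the log2 scale in U-937 than in SKNO-1 (difference -2.79, SE 0.17, adjusted p = 1.62e-10). BCL2L1 (1.13, SE 0.16, adjusted p = 1.12e-05), MCL1 (1.05, SE 0.14, adjusted p = 3.94e-06) and BCL2A1 (1.13, SE 0.16, adjusted p = 1.45e-05) changed more upward in U-937. The differences for PMAIP1, BAX and BAK1 were between 0.57 and 0.65. All 3 calls were lost on library totals and without any 1 of SKNO-1 combination replicate 1, U-937 combination replicate 2 or U-937 DMSO replicate 1. Without SKNO-1 DMSO replicate 1, BAX was at 0.27 (adjusted p = 0.209) and BAK1 at 0.26 (adjusted p = 0.195), and without SKNO-1 DMSO replicate 2 PMAIP1 was at 0.29 (adjusted p = 0.165). BCL2L11 had a difference of -0.02 (SE 0.17, adjusted p = 1.00).

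**Figure D5:**
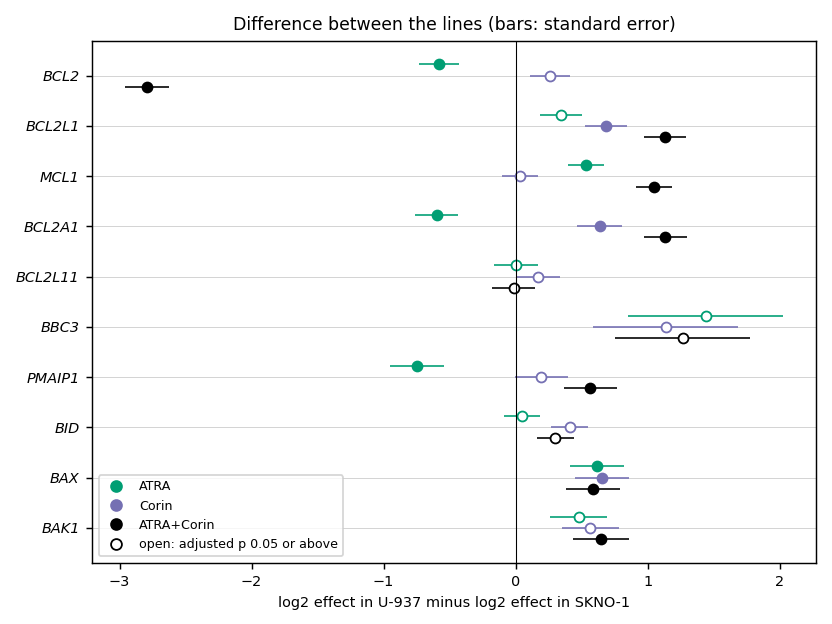
Log2 effect in U-937 minus log2 effect in SKNO-1 for each of the 10 genes under ATRA (green), Corin (purple) and both agents (black); bars are standard errors, and filled points have an adjusted p under 0.05. With both agents BCL2 lies at -2.79 and BCL2L1, MCL1 and BCL2A1 between 1.05 and 1.13.

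Profiles most like those of the 10 genes were sought among 10115 protein-coding genes, by Pearson's r of log2(CPM + 1) over 16 libraries after each line's mean was removed. These values are descriptions. BCL2 was nearest to FAM81A (r = 0.994) and KLHL23 (0.991), MCL1 to OSGIN2 (0.979) and ELF2 (0.978), and BAX to ERCC1 (0.985) and DAPK3 (0.971). BCL2L1 was nearest to DCAF11 (0.9485) and RER1 (0.938), BCL2A1 to DUS2 (0.924) and PLXDC2 (0.922), and BID to VCP (0.972) and UQCRQ (0.960). PMAIP1 was nearest to a gene of the family, BCL2A1 (0.869), and then to BBS12 (0.837). BAK1 was nearest to MFSD13A (0.971), and BAX was second (0.967). BBC3 was nearest to EXTL3 (0.929) and to GADD45B (0.926), a stress-induced gene. BCL2L11 had the lowest leading value, 0.846 with DOCK3, followed by NBPF15 (0.830).

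Other genes of the pathway were taken from lists, whose counts stand beside 33.1% of all genes higher and 32.2% lower with both agents in U-937 (65.3% called), and 24.7% higher and 22% lower in SKNO-1 (46.7% called). Of 13 further BCL2 family genes, 10 were tested in U-937 with both agents, and 5 rose and 3 fell. BMF, a BH3-only gene, rose from 13.7 and 11.7 CPM to 129 and 128 (log2 3.35, SE 0.12, adjusted p = 2.73e-17), with 48.5 and 52.4 CPM under ATRA and 16.1 and 18.4 under Corin. HRK, another BH3-only gene, had 68 and 69 counts with DMSO, 6 and 4 with ATRA, 50 and 32 with Corin, and 0 and 2 with both (adjusted p = 7.00e-09). BCL2L12 fell by 1.53 on the log2 scale. In SKNO-1, 9 of the 13 were tested, and 3 rose and 1 fell with both agents. BMF rose there too, from 4.95 and 4.59 CPM to 19.5 and 19.8 (log2 2.09, SE 0.11, adjusted p = 7.63e-06), with 20.8 and 20.0 CPM under Corin alone and 4.98 and 5.19 under ATRA alone. BIK (0.69) and BNIP3L (0.64) rose as well.

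Downstream of the mitochondria, 4 of 13 apoptosome and caspase genes rose and 7 fell in U-937 with both agents, and 3 rose and 6 fell in SKNO-1, where 65.3% and 46.7% of all genes were called. In U-937 CYCS, which encodes cytochrome c, fell by 1.69 and the nuclease gene ENDOG fell by 2.18 on the log2 scale. In SKNO-1 HTRA2 fell by 0.72 and CASP6 fell by 0.68, and CASP8, the initiator of the death receptor route, rose by 0.60. The voltage-dependent anion channel genes of the outer membrane, VDAC1, VDAC2 and VDAC3, fell in both lines, 3 of 3. In U-937 their log2 changes were -2.57, -1.12 and -1.26, and in SKNO-1 -0.41, -0.32 and -0.88. VDAC2 is known to hold BAK1 at the membrane.

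Of 7 inhibitor of apoptosis genes, 5 rose and 1 fell in U-937 with both agents (65.3% of all genes called), and edgeR called 0 of 6 tested in SKNO-1, where 0 had an unadjusted p under 0.05. NAIP rose by 1.59 in U-937 (SE 0.14), BIRC7 rose by 2.01 (SE 0.50) from 9 and 6 counts, and BIRC5, which encodes survivin and marks dividing cells, fell by 1.56 on the log2 scale (SE 0.12). In the death receptor arm, 5 of 9 genes tested rose and 3 fell in U-937, and 1 rose and 1 fell in SKNO-1 (46.7% of all genes called). TNFSF10, the ligand TRAIL, rose in U-937 by 2.50 (SE 0.19), its receptor gene TNFRSF10A fell by 1.96 (SE 0.29), and CFLAR, an inhibitor of caspase-8 activation, rose by 1.21 (SE 0.10). In SKNO-1 TNFRSF10B, another TRAIL receptor, rose by 2.13 (SE 0.09). Of 12 known regulators of the family, 5 rose and 5 fell in U-937, and 2 rose and 3 fell in SKNO-1. CDKN1A, a p53 target used here as a readout, rose by 4.57 (SE 0.17) in U-937 and 1.32 (SE 0.15) in SKNO-1. FOXO3, which can induce BCL2L11 and BBC3, rose by 0.84 (SE 0.10) and 0.95 (SE 0.07), and in U-937 ATF4 fell by 1.25 (SE 0.11). NFKB1 fell by 0.67 in SKNO-1 (SE 0.06).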

How the data were processed

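Total RNA of 16 libraries from SKNO-1 and U-937 cells was analysed. RSEM's estimated counts were deposited by the authors as 1 table and, with TPM values and effective lengths, as 1 file per library. The table of all libraries differed from those files by at most 0. Trimmomatic, STAR, RSEM, deepTools and DESeq2 and the build hg38 are named without versions in the submitters' processing notes. Strand setting and annotation release are not given in the sources used here, and the labels name paired-end reads of 100 bp while the names of the deposited files are marked SE. Of the positive values 20.4% were not whole, and counts were rounded. The authors deposited log2 fold changes and adjusted p-values from DESeq2, per the file headers, used here only for comparison.

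Genes were filtered with filterByExpr, scaled by TMM and tested with edgeR 4.0.16 (R 4.3.3) by robust quasi-likelihood F tests, with 1 fit per line (8 libraries, 4 residual degrees of freedom; SKNO-1 17479 genes, U-937 17717) and 1 fit of all 16 libraries (19872 genes) between lines. Calls use a Benjamini-Hochberg adjusted p under 0.05 over all genes tested. Standard errors come from the unshrunken estimate and the square root of its F statistic. Fold changes are those of edgeR. The fits were also run on counts simulated with a constant spread and no GC trend. That simulation cannot show how the GC trend of the SKNO-1 DMSO libraries moves calls. The 10 genes and the other lists were chosen with earlier results of these data known. In the other lists, the 3 genes with the largest change among those called under both agents in a line are named, except 1 that is not reported here, and profiles name the 2 nearest among genes averaging 5 CPM or more. The gene length offset was added after the data were seen. DESeq2 1.42.0 was an alternative.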

Additional observations from a re-analysis of the deposited data

Results flagged for a closer look

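The effects of an agent differed between the lines by the interaction test (edgeR's quasi-likelihood test, Benjamini-Hochberg adjustment over 19872 genes) for 15 pairs of gene and treatment. Differences are the log2 effect in U-937 minus that in SKNO-1, and the treatments of a line share its DMSO libraries. With ATRA they were -0.58 for BCL2 (adjusted p = 0.0106), 0.53 for MCL1 (adjusted p = 0.00797), -0.60 for BCL2A1 (adjusted p = 0.0125), -0.75 for PMAIP1 (adjusted p = 0.0123) and 0.61 for BAX (adjusted p = 0.0401). With Corin they were 0.68 for BCL2L1 (adjusted p = 0.00744), 0.64 for BCL2A1 (adjusted p = 0.0170) and 0.65 for BAX (adjusted p = 0.0428). With both agents they were -2.79 for BCL2, 1.13 for BCL2L1, 1.05 for MCL1, 1.13 for BCL2A1, 0.57 for PMAIP1 (adjusted p = 0.0304), 0.59 for BAX (adjusted p = 0.0262) and 0.65 for BAK1 (adjusted p = 0.0217). Several were lost when 1 library was left out. BAX with ATRA was kept only without SKNO-1 DMSO replicate 2, and MCL1 with ATRA was lost without either SKNO-1 ATRA library, U-937 ATRA replicate 2 or U-937 DMSO replicate 1, with 0.35 (adjusted p = 0.0980) in the last. BCL2A1 with Corin was lost without SKNO-1 Corin replicate 2, U-937 Corin replicate 1 or U-937 DMSO replicate 1, with adjusted p from 0.0632 to 0.0711. BAX with Corin lost its call in 17 of 23 alternatives, and among fits with 1 library left out it was kept only without SKNO-1 DMSO replicate 2 or U-937 Corin replicate 2. With the replicate block, BAX lost its call with ATRA (0.60, adjusted p = 0.0616) and with Corin (0.64, adjusted p = 0.0668). Without SKNO-1 DMSO replicate 1 the BAX difference was 0.24 with ATRA (adjusted p = 0.341) and 0.33 with Corin (adjusted p = 0.218). The part of the medium, which held GM-CSF for SKNO-1 alone, cannot be told apart from that of the line.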

How the results depend on the processing

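Over 2877 values of single genes under alternatives, 2619 kept their direction where called and their side of the threshold, 149 lost a call, 108 gained one and 1 reversed. The reversed value was BAX with ATRA in SKNO-1, at -0.29 (adjusted p = 0.0353) without SKNO-1 DMSO replicate 2 and 0.30 (adjusted p = 0.0392) without SKNO-1 DMSO replicate 1, against 0.02 with both. Counts of called genes moved by over 1.5 times as follows. For Corin in U-937 the count was 0 in place of 1 with DESeq2's size factors, the DESeq2 test, the replicate block, the GC trend removed, the gene length offset and the authors' deposited table. For Corin in SKNO-1 it was 1 with only the 4 libraries compared and 3 in the authors' deposited table, in place of 5. For ATRA in SKNO-1 it was 2 with the GC trend removed and 0 with only the 4 libraries compared. For both agents against Corin in SKNO-1 it was 5 without the low-count filter, 5 with the GC trend removed and 8 with only the 4 libraries compared, in place of 2. Without the filter 1 gene departed from additivity in SKNO-1, in place of 0. The interaction count was 5 for Corin with the GC trend removed and 4 for both agents on library totals.

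Leaving out 1 library at a time, counts in SKNO-1 ran from 1 to 6 for ATRA, 2 to 9 for Corin, 4 to 9 for both agents, 1 to 9 for both against ATRA, 0 to 7 for both against Corin and 0 to 5 for departure from additivity. Calls over all genes moved with them, from 562 to 5335, 3626 to 9520, 5469 to 11100, 4962 to 10907, 397 to 7126 and 7 to 5648. In U-937 they ran from 4 to 5, 0 to 2, 8 to 9, 5 to 7, 8 to 8 and 3 to 4. The lines with DMSO differed in 5 to 8 genes, and interactions numbered 3 to 8 for ATRA, 1 to 6 for Corin and 4 to 8 for both agents.

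Differences between replicates correlated between groups of a line at -0.49 to 0.42. These correlations cannot settle whether the replicate numbers pair the samples, since replicate differences also correlated with GC content. With the replicate block MCL1 lost its Corin call in SKNO-1 (adjusted p = 0.0547) and BAK1 its Corin call in U-937 (adjusted p = 0.0630), so that the Corin count in U-937 was 0. BAX lost its ATRA (adjusted p = 0.0616) and Corin (adjusted p = 0.0668) interactions, and MCL1 with DMSO was called lower in U-937 than in SKNO-1 (-0.26, adjusted p = 0.0369). Library totals moved the median of all genes for both agents in U-937 from 0.03 to -0.09, for both agents against Corin there from 0.02 to -0.11, and for the interaction of both agents from -0.11 to -0.26. BBC3 had 6 to 29 counts a library in SKNO-1, and its DMSO libraries differed by 0.87 against 0.28 CPM. The part of depth in its missing calls there was not tested.

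Over all genes tested, the split of higher against lower calls moved by over 10 percentage points in 5 comparisons. With the GC trend removed it went from 1434 and 2713 to 2549 and 2356 for departure from additivity in U-937, from 55 and 26 to 277 and 240 for the same in SKNO-1, from 1514 and 779 to 1485 and 1382 for Corin in U-937, and from 1050 and 1488 to 2397 and 2003 for the Corin interaction. With the gene length offset departure from additivity in SKNO-1 had 56 and 41. On library totals the ATRA interaction went from 2100 and 1750 to 1726 and 2358.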
